A study of Mus musculus with 2 samples.

Results

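A set of 10 genes of innate immune sensing was followed across the cells of mouse bone marrow. They were taken by symbol from the 32286 features of the matrices, and 10 of 10 were found: the Toll-like receptor genes Tlr2, Tlr4, Tlr7, Tlr9 and Tlr13, the co-receptor genes Cd14 and Ly96, the adaptor gene Myd88, the lectin gene Cd33 and Ager, which encodes the receptor RAGE. The marrow was profiled with a droplet kit that counts the 3′ ends of the transcripts of single hematopoietic cells, in 2 libraries, 1 for each genotype. The control library has the genotype Mx1Cre+/-;Rosa26+/+, and the other, called the MYC library, has the genotype Mx1Cre+/-;Rosa26LSL-MYC/LSL-MYC. Both carry the Mx1-Cre transgene, a recombinase gene driven by an interferon-inducible promoter that is not limited to blood stem cells, and the MYC library carries a MYC transgene behind a removable stop cassette on both Rosa26 alleles. The labels state no age, no number of animals and no inducing treatment. The series asked how expression in the marrow differs when MYC is overexpressed in blood stem cells, and its title names alarmins, proteins that alert immune receptors once cells release them.

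Toll-like receptors are membrane proteins that recognize microbial molecules and some of the body's own molecules released from damaged cells. Tlr2 and Tlr4 sit at the cell surface, where Tlr2 recognizes lipoproteins and Tlr4, together with MD-2 (the product of Ly96), recognizes lipopolysaccharide that CD14 hands over. Tlr7, Tlr9 and Tlr13 sit in endosomes and recognize single-stranded RNA, unmethylated DNA and bacterial ribosomal RNA. Myd88 carries the signal of these receptors, and of the interleukin-1 receptor family, to kinases that activate NF-kB. RAGE and CD33 lie outside this family: RAGE binds several alarmins, and CD33 is an inhibitory-type lectin for sialic acids on myeloid cells. Neutrophils, monocytes and macrophages are the marrow cells best known for these receptors.

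After filters 14760 control cells (119905786 unique molecular identifiers, UMIs) and 12645 cells of the MYC library (102740700 UMIs) were kept, with medians of 5321.5 and 6014 UMIs per cell. Levels are UMIs of a gene per 1000000 UMIs of a cell class (CPM), and intervals in brackets are 95% intervals that cover counting error only. Class names stand for clusters like that cell type by fixed markers, so that "monocyte" means monocyte-like. With 1 library per genotype no difference between the libraries was tested, and genotype and library preparation cannot be told apart. The feature named MYC, which checks the labels, had 0 UMIs in the control library (upper limit 0.0308 CPM) and 295 UMIs in the MYC library (2.87 CPM). The libraries shared 97 barcodes, 77 of them among kept cells, and leaving those cells out moved the log2 ratios of the 10 genes by class by at most 0.031, apart from that of Myd88 in mature B cells (0.063, and -0.21 without them). Most features were lower in the MYC library in the classes compared: the median log2 ratio of all features with at least 50 UMIs was -0.28 in granulocyte progenitors, -0.20 in immature neutrophils, -0.22 in mature neutrophils and -0.15 in monocytes. Ratios of MYC to control library in these 4 classes are therefore also read against that median, which median-of-ratios scaling sets to 0.

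Sequence just before the start of transcription was looked at for 4 of the genes whose levels set the neutrophil and monocyte classes apart, to show which of 3 short motifs it holds. RefSeq windows of build GRCm38.p6 were at hand for 6 of the 10 genes (Tlr2, Tlr9, Tlr13, Myd88, Cd33 and Ager). The motifs were the E-box CACGTG, to which MYC binds with its partner MAX, the PU.1 core GAGGAA, and the interferon response core (GAAA, 2 bases of any kind, GAAA), each searched on both strands over the 250 bases before the start. The E-box was in 0 of the 6 windows and in 6.02% of 32851 windows of all genes. The PU.1 core was in the windows of Tlr9, Tlr13 and Cd33 and in 23.3% of all windows. The interferon response core was in the window of Myd88, starting 40 bases before the start, and in 2.98% of all windows. No motif overlapped another in these windows. For the 4 genes printed below, the RefSeq start lies inside the gene span given further on, while for Ager it lies just upstream of that span. The runs of Myd88 and Cd33 lie wholly inside their gene spans, before 1 annotated start and not before the most upstream one. The runs below are the parts of 4 windows that lie outside annotated exons, read 5′ to 3′ on the gene's strand, with motif matches in capitals. The match in Cd33, 226 bases before the start, falls in an exon of another annotated transcript and is not shown.
Tlr2 (chr3:83841768-83841858, minus strand, no match): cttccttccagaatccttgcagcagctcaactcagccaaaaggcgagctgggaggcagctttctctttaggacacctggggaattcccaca
Tlr13 (chrX:106143025-106143203, plus strand, PU.1 core): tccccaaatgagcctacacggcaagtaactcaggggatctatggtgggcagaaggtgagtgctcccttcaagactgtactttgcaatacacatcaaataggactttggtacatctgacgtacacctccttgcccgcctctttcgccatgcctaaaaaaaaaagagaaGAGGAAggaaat
Myd88 (chr9:119340042-119340268, minus strand, interferon response core): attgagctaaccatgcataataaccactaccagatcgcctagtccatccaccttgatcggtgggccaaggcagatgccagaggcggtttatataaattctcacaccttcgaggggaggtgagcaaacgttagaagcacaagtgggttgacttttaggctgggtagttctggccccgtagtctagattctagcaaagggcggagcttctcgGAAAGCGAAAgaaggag
Cd33 (chr7:43533172-43533364, minus strand, no match in this run): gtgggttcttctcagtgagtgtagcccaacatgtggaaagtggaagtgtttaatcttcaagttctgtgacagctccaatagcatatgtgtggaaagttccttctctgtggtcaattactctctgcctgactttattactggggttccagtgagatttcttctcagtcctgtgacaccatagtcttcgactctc

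Tlr4 (ENSMUSG00000039005, GRCm38 chromosome 4, 66827584 to 66930284, protein-coding) was highest in macrophages and next highest in mature neutrophils of both libraries. Macrophages stood at 74.0 CPM (control, 28 UMIs in 73 cells) and 32.8 CPM (MYC, 137 UMIs in 677 cells), and mature neutrophils at 30.6 and 23.6 CPM. In the control, macrophages were 2.42-fold above mature neutrophils (1.59 to 3.55) and mature neutrophils 2.22-fold above the next class, nonclassical monocytes (13.8 CPM). In the MYC library macrophages were 1.39-fold above mature neutrophils (1.13 to 1.70). Mature neutrophils were 1.96-fold above nonclassical monocytes there (0.894 to 5.39), which is not beyond counting error. Below these, immature neutrophils (12.9 CPM), conventional dendritic cells (11.5 CPM), granulocyte progenitors (11.1 CPM) and monocytes (9.998 CPM) followed each other in the control without a gap beyond counting error. Erythroid cells, which served as the class that should lack these receptors, were at 0.988 and 0.933 CPM, so the level in mature neutrophils was 30.9-fold (20.2 to 49.8) and 25.3-fold (12.2 to 63.4) theirs. Tlr4 transcripts were found in all 3 neutrophil stages, and mature neutrophils stood 2.74-fold above granulocyte progenitors in the control (2.30 to 3.28) and 3.56-fold in the MYC library (2.79 to 4.58).

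Between the libraries Tlr4 was lower in the 2 earlier neutrophil stages of the MYC library. Granulocyte progenitors stood at 11.1 CPM (173 UMIs) and 6.63 CPM (82 UMIs), a log2 ratio of -0.75 (-1.14 to -0.36). Immature neutrophils stood at 12.9 and 7.77 CPM, a log2 ratio of -0.73 (-1.01 to -0.46). Read against the all-feature median these ratios were -0.47 and -0.53, short of 1.5-fold. Both stayed below 0 under the 8 other processing choices tried, but the immature value was -0.42 with doublets kept and -0.32 when cells needed 1000 UMIs and 500 genes. In mature neutrophils the ratio was -0.37 (-0.57 to -0.17), and -0.15 against the median. Monocytes held 9.998 and 9.77 CPM, a log2 ratio of -0.03 (-0.31 to 0.25) that became 0.31 when the libraries were clustered separately.

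Cd14 (ENSMUSG00000051439, GRCm38 chromosome 18, 36725067 to 36726798, protein-coding), the co-receptor that passes lipopolysaccharide to Tlr4, was the gene of the 10 with the largest ratio between the libraries. Mature neutrophils went from 8.24 CPM (134 UMIs) in the control to 61.8 CPM (951 UMIs) in the MYC library, which is a log2 ratio of 2.91 (2.65 to 3.18). Immature neutrophils held 4.45 and 16.3 CPM, a log2 ratio of 1.88 (1.55 to 2.22). Granulocyte progenitors held 4.12 and 10.8 CPM, a log2 ratio of 1.40 (0.96 to 1.85), and monocytes 7.64 and 15.6 CPM, a log2 ratio of 1.03 (0.75 to 1.32). Cd14 was therefore higher in the MYC library in every neutrophil stage and in monocytes. Among these classes the ratio was largest in mature neutrophils, while the intervals of the 2 earlier stages overlapped. Against the all-feature medians the ratios were 1.68 in granulocyte progenitors, 2.08 in immature neutrophils, 3.13 in mature neutrophils and 1.19 in monocytes. Across the 8 other processing choices the mature neutrophil value ranged from 2.81 to 3.15 and the monocyte value from 0.98 to 1.32.

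The gradient of Cd14 along the neutrophil stages differed between the libraries by more than counting error. Mature neutrophils were 1.85-fold above immature neutrophils in the control (1.41 to 2.44) and 3.79-fold in the MYC library (3.37 to 4.27). In the control, mature neutrophils and monocytes held similar levels of Cd14, with a ratio of monocytes to mature neutrophils of 0.927 (0.725 to 1.19). In the MYC library that ratio was 0.253 (0.225 to 0.284). As a share of cells, 2.75% of 3925 control mature neutrophils and 19.1% of 2942 in the MYC library had a Cd14 UMI, and 0.861% and 5.81% after each cell was thinned to 1000 UMIs (3810 and 2887 cells deep enough). In erythroid cells the shares were 0.614% and 2.80%, or 0.0340% and 0.239% after thinning, at median depths of 10765 and 7413 UMIs against 3884 and 5131.5 UMIs in mature neutrophils. Erythroid Cd14 itself stood at 0.449 CPM (10 UMIs) and 2.40 CPM (18 UMIs), also higher in the MYC library but short of the 50 UMIs needed for a comparison. Mature neutrophils were 18.3-fold (9.67 to 39.1) and 25.8-fold (16.2 to 43.7) above erythroid cells. From few UMIs, stem or multipotent progenitors (0.512 and 2.46 CPM) and plasma cells (0.615 and 2.24 CPM) stood higher in the MYC library too. The part of free RNA in the Cd14 ratios was not tested.

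The libraries filled the mature neutrophil class from different clusters, so Cd14 was also compared cluster by cluster, a comparison added after the data were seen. Clusters 0 (led by Il1b) and 5 (led by Thbs1) held 2285 and 1269 control cells against 149 and 138 of the MYC library, and clusters 1 (led by Cxcl2) and 7 (led by Gpr27) held 103 and 123 control cells against 1253 and 1352. Cd14 was higher in the MYC library in each of the 5 mature neutrophil clusters, with log2 ratios from 2.41 (1.66 to 3.13) in cluster 5 to 4.13 (3.68 to 4.58) in cluster 0. In cluster 0 it stood at 9.66 and 169 CPM. The control values of clusters 1, 7 and 15 rest on 4, 2 and 5 UMIs. Immature clusters 4 and 8 had log2 ratios of 1.57 and 2.23, and monocyte clusters 11 and 13 had 1.21 and 0.99. Over the whole mature neutrophil class, the 9 mature neutrophil markers summed to 27151 CPM (control) and 36167 CPM (MYC), the 10 monocyte markers to 965 and 1023 CPM, and the 10 macrophage markers to 257 and 218 CPM, with none at 0. The part of these differences in the Cd14 result was not tested.

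**Figure D1:**
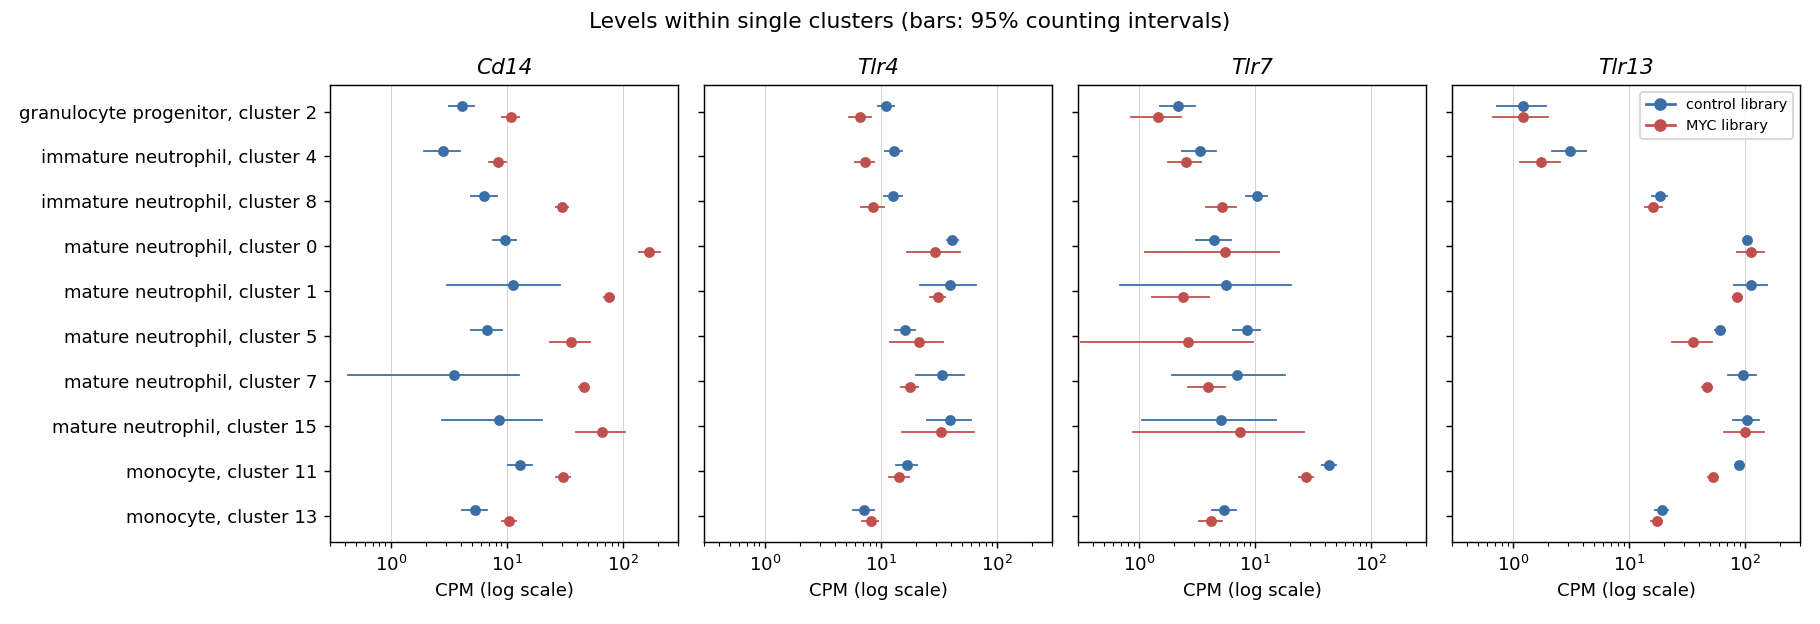
Levels (CPM, log axis) of Cd14, Tlr4, Tlr7 and Tlr13 in the single clusters of the neutrophil stages and monocytes, with blue points for the control and red points for the MYC library and bars for 95% counting intervals. Cd14 lies higher in the MYC library in every cluster shown, with ratios from 5.30 against 10.5 CPM in monocyte cluster 13 (log2 0.99) to 9.66 against 169 CPM in mature neutrophil cluster 0 (log2 4.13).

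In macrophages the values lay the other way round. They held 60.8 CPM of Cd14 in the control, from 23 UMIs in 73 cells, and 12.0 CPM in the MYC library, from 50 UMIs in 677 cells. The control had too few macrophages for a comparison, but the order of classes changed with it: macrophages led for Cd14 in the control, 6.30-fold above nonclassical monocytes (2.62 to 17.4), and mature neutrophils led in the MYC library, 1.96-fold above conventional dendritic cells (1.26 to 3.22). Conventional dendritic cells held 5.77 CPM (3 UMIs) and 31.5 CPM (20 UMIs), and nonclassical monocytes 9.64 CPM (7 UMIs) and 26.0 CPM (13 UMIs). B progenitors and mature B cells of the control had 0 Cd14 UMIs.

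Ly96 (ENSMUSG00000025779, GRCm38 chromosome 1, 16688051 to 16709611, protein-coding), whose product MD-2 binds lipopolysaccharide beside Tlr4, showed no ratio as large as that of Cd14. Mature neutrophils stood at 15.2 CPM (247 UMIs) and 17.4 CPM (268 UMIs), a log2 ratio of 0.20 (-0.06 to 0.45), and monocytes at 19.0 and 17.0 CPM, a log2 ratio of -0.16 (-0.37 to 0.05). Against the all-feature medians these ratios were 0.42 and -0.0092. The mature neutrophil value was -0.97 in cluster 5, from 3 UMIs in the MYC library, and 0.56 in cluster 7. Along the neutrophil stages, granulocyte progenitors held 0.579 CPM (9 UMIs) and 0.889 CPM (11 UMIs), and immature neutrophils 1.45 and 1.77 CPM. Progenitors were not above erythroid cells (1.21 and 1.87 CPM) and their level was read as background, while mature neutrophils were 12.5-fold (8.40 to 19.4) and 9.34-fold (5.47 to 17.3) above erythroid cells. Plasma cells, which secrete antibody, also held this gene, at 14.8 CPM (control, 72 UMIs) and 22.4 CPM (MYC, 40 UMIs), 12.2-fold (7.72 to 19.7) and 12.0-fold (6.40 to 23.9) above erythroid cells. In the control, 24.7% of 243 plasma cells had a Ly96 UMI, and 1.45% after thinning, against 1.77% and 0.155% of erythroid cells, at median depths of 20994 and 10765 UMIs. In the MYC library plasma cells were at the head of the order, though not beyond counting error above macrophages (18.0 CPM), mature neutrophils and monocytes.

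Tlr2 (ENSMUSG00000027995, GRCm38 chromosome 3, 83836272 to 83841767, protein-coding), the surface receptor for lipoproteins, was highest in mature neutrophils of both libraries. They held 82.2 CPM (control, 1338 UMIs) and 67.9 CPM (MYC, 1044 UMIs). In the control they were 1.46-fold above nonclassical monocytes (1.07 to 2.04), and the next 4 classes, nonclassical monocytes (56.5 CPM), macrophages (44.9 CPM), monocytes (35.6 CPM) and conventional dendritic cells (30.8 CPM), did not differ from their neighbours beyond counting error. A drop of 2.92-fold (1.64 to 4.85) led from there to immature neutrophils (10.5 CPM). In the MYC library macrophages stood second at 54.2 CPM (226 UMIs), 1.72-fold above conventional dendritic cells (1.09 to 2.87). Mature neutrophils were 7.80-fold above immature neutrophils in the control (6.76 to 9.05) and 8.74-fold in the MYC library (7.48 to 10.3). The step from granulocyte progenitors to immature neutrophils was small, 1.53-fold and 1.55-fold. Granulocyte progenitors were 3.06-fold above erythroid cells in the control (2.17 to 4.38). In the MYC library they were 1.39-fold above them (0.874 to 2.28), not beyond counting error.

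In neutrophils and monocytes Tlr2 differed by less than 1.5-fold between the libraries, with an exception among the other processing choices. The log2 ratio was -0.28 (-0.40 to -0.16) in mature neutrophils, -0.44 (-0.73 to -0.15) in immature neutrophils and -0.26 (-0.41 to -0.10) in monocytes, and against the medians -0.06, -0.24 and -0.10. In the 5 mature neutrophil clusters it was between -0.51 and -0.23. The immature value was -1.02 with cells under 5% mitochondrial UMIs, past 1.5-fold, and 0.37 when cells needed 1000 UMIs and 500 genes. The monocyte value was 0.063 when the libraries were clustered separately. The monocyte clusters also differed, at -0.52 in cluster 11 and 0.18 in cluster 13. In erythroid cells, where the gene is near the limit of detection, Tlr2 stood at 2.25 CPM (50 UMIs) and 3.60 CPM (27 UMIs), a log2 ratio of 0.68 with an interval (-0.053 to 1.38) that included 0.

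**Figure D2:**
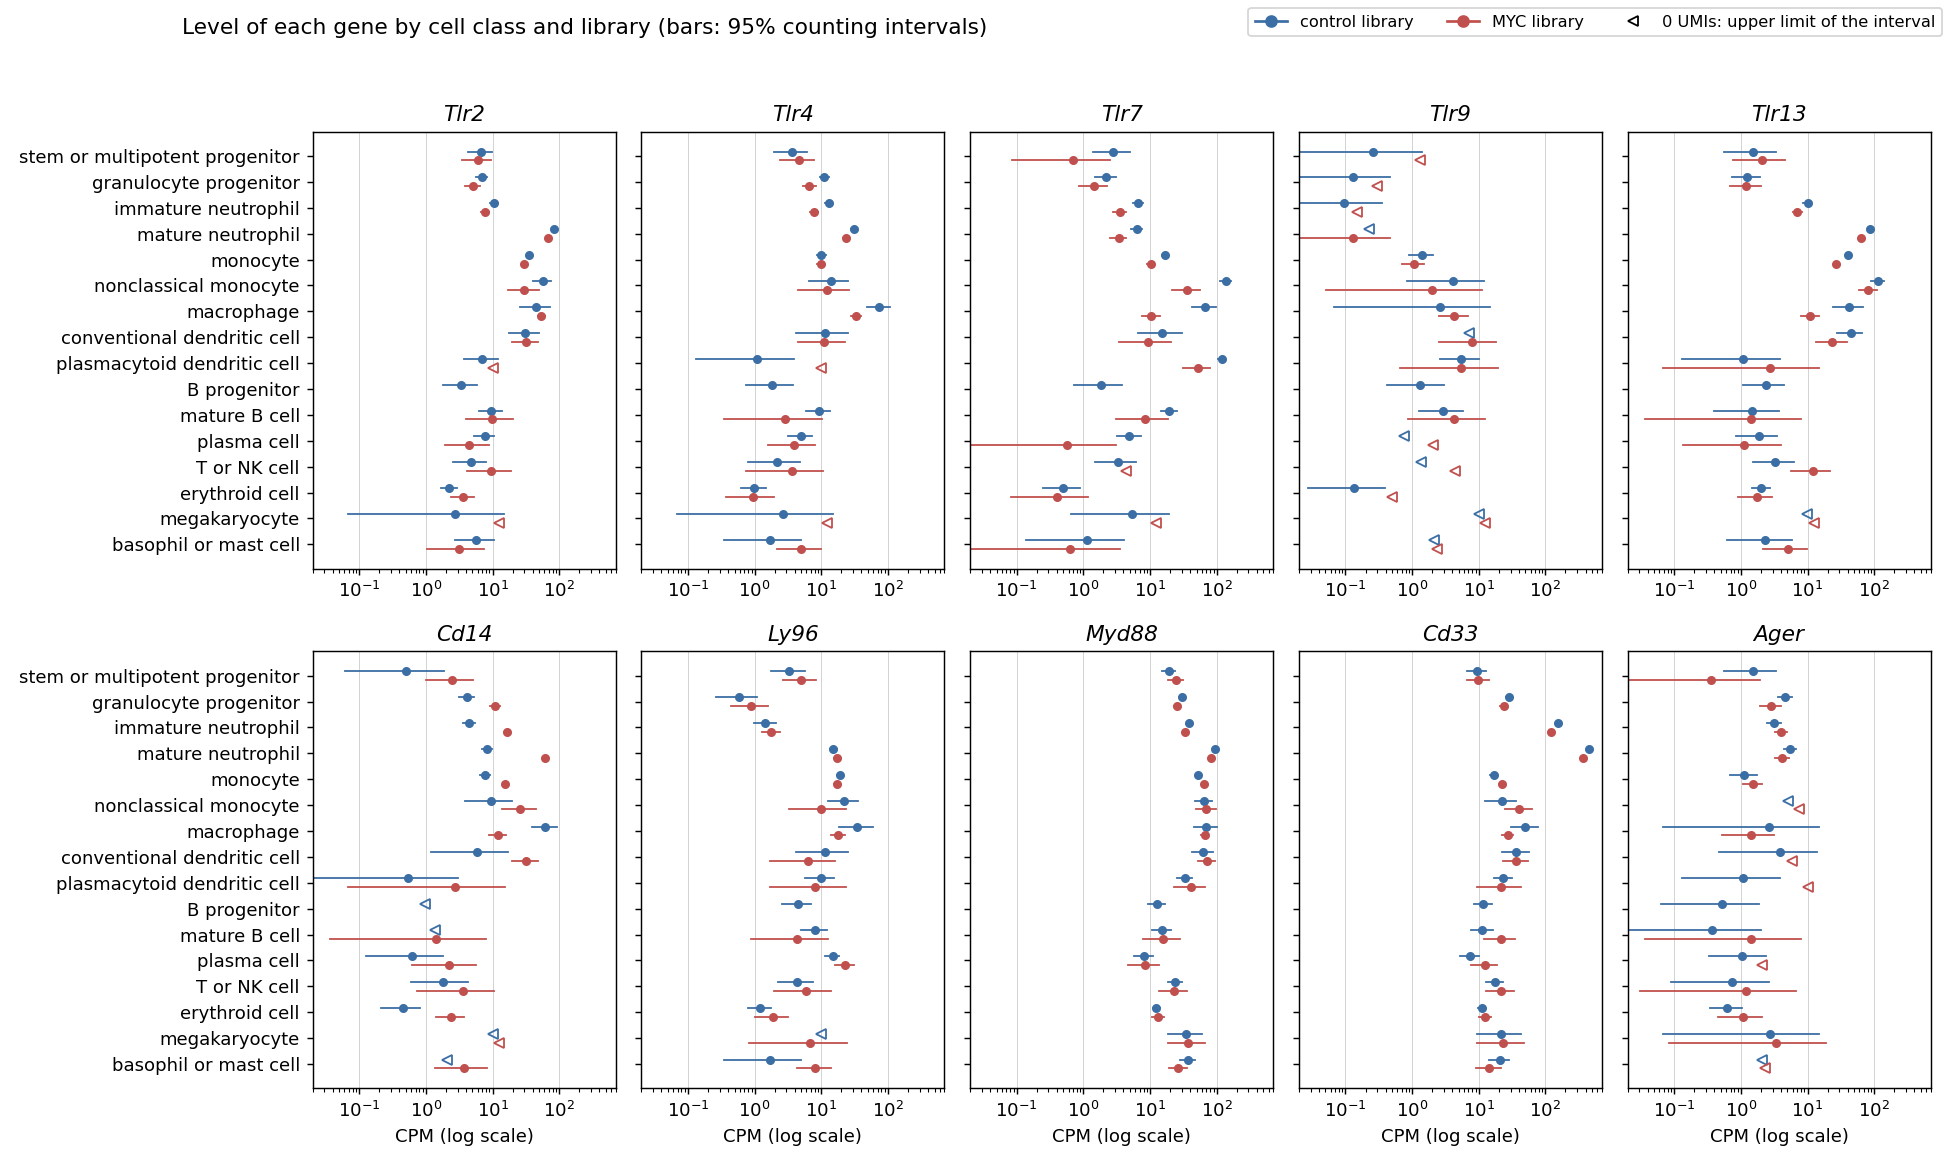
Level (CPM, log axis) of each of the 10 genes in every class with at least 50 cells, and in plasmacytoid dendritic cells of both libraries, with blue for the control and red for the MYC library. Points are levels, bars are 95% counting intervals (cut at the left edge), and open triangles give the upper limit where 0 UMIs were counted. Cd33 peaks in mature neutrophils (454 and 372 CPM), Tlr7 in nonclassical monocytes and plasmacytoid dendritic cells, and Myd88 has UMIs in all classes shown.

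Tlr7 (ENSMUSG00000044583, GRCm38 chromosome X, 167304929 to 167330558, protein-coding), the endosomal receptor for single-stranded RNA, had its highest levels outside the neutrophils. In the control, nonclassical monocytes (136 CPM, 99 UMIs) and plasmacytoid dendritic cells (118 CPM, 218 UMIs) led without a difference beyond counting error, and the latter were 1.79-fold above macrophages (66.1 CPM), with an interval of 1.18 to 2.83. Mature B cells (19.4 CPM), monocytes (16.9 CPM) and conventional dendritic cells (15.4 CPM) formed the next group. Of 218 control plasmacytoid dendritic cells 56.0% had a Tlr7 UMI, and 11.0% after thinning, against 0.614% and 0.0851% of erythroid cells, at median depths of 8264 and 10765 UMIs. Plasmacytoid dendritic cells were 6.99-fold above monocytes in the control (5.85 to 8.35) and, from 19 UMIs in 44 cells, 5.07-fold in the MYC library (3.004 to 8.07). Plasma cells stood at 0.254 of the mature B cell level in the control (0.1498 to 0.418).

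Tlr7 was lower in the MYC library in neutrophils and monocytes. Immature neutrophils stood at 6.53 CPM (135 UMIs) and 3.49 CPM (85 UMIs), a log2 ratio of -0.90 (-1.31 to -0.50). Mature neutrophils stood at 6.27 and 3.38 CPM, a log2 ratio of -0.89 (-1.40 to -0.40), and monocytes at 16.9 and 10.2 CPM, a log2 ratio of -0.73 (-0.97 to -0.49). These ratios were -0.70, -0.67 and -0.58 against the medians. The monocyte value was -0.20 when the libraries were clustered separately, short of 1.5-fold. Monocyte cluster 11 went from 43.6 to 27.5 CPM (-0.66) and cluster 13 from 5.46 to 4.18 CPM (-0.39). Mature neutrophil cluster 0 gave 0.31 and cluster 15 gave 0.52, from 3 and 2 UMIs in the MYC library. The granulocyte progenitor value of -0.59 (-1.50 to 0.28) rested on 34 and 18 UMIs, and was 0.054 at a Leiden resolution of 2. Nonclassical monocytes held 136 CPM and, from 18 UMIs in 76 cells, 36.0 CPM, and macrophages 66.1 CPM (25 UMIs) and 10.3 CPM (43 UMIs). Mature B cells had 19.4 CPM and, from 6 UMIs, 8.54 CPM, a log2 ratio of -1.18 (-2.69 to 0.04).

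Tlr13 (ENSMUSG00000033777, GRCm38 chromosome X, 106143204 to 106160493, protein-coding), the endosomal receptor for bacterial ribosomal RNA, was highest in nonclassical monocytes and mature neutrophils. Nonclassical monocytes stood at 114 CPM (control, 83 UMIs) and 82.1 CPM (MYC, 41 UMIs), and mature neutrophils at 86.0 CPM (1399 UMIs) and 64.4 CPM (990 UMIs). Nonclassical monocytes were 1.33-fold above mature neutrophils in the control (1.05 to 1.66), and in the MYC library the interval of that ratio (0.910 to 1.74) included 1. Granulocyte progenitors held 1.22 and 1.21 CPM, no more than erythroid cells at 2.02 and 1.73 CPM, and were read as background. Immature neutrophils stood at 10.01 and 7.03 CPM, and mature neutrophils were 8.59-fold above them in the control (7.42 to 9.99) and 9.16-fold in the MYC library. Against erythroid cells, mature neutrophils were 42.5-fold (31.6 to 58.6) and 37.2-fold (21.6 to 70.1) higher.

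Tlr13 had log2 ratios of -0.60 (-0.75 to -0.45) in monocytes, -0.51 (-0.81 to -0.21) in immature neutrophils and -0.42 (-0.54 to -0.30) in mature neutrophils. Against the medians these were -0.44, -0.31 and -0.20. The immature value was -1.41 with cells under 5% mitochondrial UMIs, past 1.5-fold, and 0.10 when cells needed 1000 UMIs and 500 genes. The monocyte value came from cluster 11 (89.1 and 53.1 CPM, log2 ratio -0.74) more than from cluster 13 (19.3 and 17.4 CPM, -0.15), and was -0.08 when each library was clustered on its own. In mature neutrophil cluster 0 it was 0.11, and in cluster 7 -1.01. Macrophages held 42.3 CPM (16 UMIs) in the control and 11.0 CPM (46 UMIs) in the MYC library.

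Tlr9 (ENSMUSG00000045322, GRCm38 chromosome 9, 106222598 to 106226883, protein-coding), the endosomal receptor for unmethylated DNA, was close to the limit of detection, with 65 UMIs in all kept control cells and 61 in the MYC library. Plasmacytoid dendritic cells stood at 5.42 CPM (10 UMIs) and mature B cells at 2.92 CPM (8 UMIs) in the control. In the MYC library conventional dendritic cells stood highest at 7.89 CPM from 5 UMIs, and macrophages held 18 UMIs (4.32 CPM), 4.07-fold above monocytes (2.12 to 7.63). Neutrophil stages held between 0 and 2 UMIs per class and library. Monocytes were the class with enough UMIs to compare, at 1.40 CPM (25 UMIs) and 1.06 CPM (28 UMIs), a log2 ratio of -0.41 (-1.24 to 0.43), or -0.25 against the median.

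Myd88 (ENSMUSG00000032508, GRCm38 chromosome 9, 119335934 to 119341411, protein-coding), the adaptor shared by these receptors, was found in every class. Its annotation overlaps those of Acaa1a on the other strand and Slc22a14 on the same strand, and how reads in the overlap were assigned is not given in the sources used here. The highest class was mature neutrophils in both libraries (94.1 and 80.9 CPM). Macrophages (68.7 and 65.9 CPM), nonclassical monocytes (64.8 and 70.1 CPM) and conventional dendritic cells (61.6 and 71.0 CPM) came next. Among these classes only neighbours in each library's order were compared, and neighbours did not differ beyond counting error. Mature neutrophils were 1.37-fold above macrophages in the control (0.930 to 2.10). In the MYC library they were 1.14-fold above conventional dendritic cells (0.847 to 1.57). Cells other than neutrophils and mononuclear phagocytes also carried it: basophils or mast cells held 37.1 and 26.5 CPM, T or NK cells 24.002 and 22.8 CPM, and stem or multipotent progenitors 19.2 and 24.3 CPM. Erythroid cells had 12.5 and 13.3 CPM and plasma cells 7.99 and 8.40 CPM. Stem or multipotent progenitors were 1.54-fold (1.18 to 1.99) and 1.82-fold (1.32 to 2.50) above erythroid cells. In mature neutrophil cluster 15, led by the interferon-induced genes Ifit3b, Ifit3 and Ifit1, Myd88 stood at 97.8 and 118 CPM, beside 123 and 147 CPM in cluster 0.

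Myd88 was a little higher in monocytes of the MYC library and near the all-feature median in neutrophils. Monocytes went from 52.2 CPM (929 UMIs) to 64.2 CPM (1695 UMIs), which is a log2 ratio of 0.30 (0.18 to 0.42), or 0.45 against the median. That value stayed above 0 under all 8 other processing choices, from 0.18 to 0.58, and was 0.31 and 0.36 in clusters 11 and 13. Monocytes stood at 0.555 of the mature neutrophil level in the control (0.511 to 0.602) and 0.793 in the MYC library (0.737 to 0.854). In mature neutrophils the log2 ratio was -0.22 (-0.33 to -0.11), equal to the all-feature median. The class and its clusters differed in sign: Myd88 was lower in cluster 7 (-0.23), and higher in clusters 0 (0.26), 1 (0.20), 5 (0.032) and 15 (0.27). With median-of-ratios scaling the value was 0.055 in granulocyte progenitors and 0.050 over the neutrophil lineage, so no direction is given there.

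Cd33 (ENSMUSG00000004609, GRCm38 chromosome 7, 43524216 to 43544428, protein-coding), a sialic acid-binding lectin, was a neutrophil gene in these cells. Mature neutrophils held 454 CPM (control, 7387 UMIs) and 372 CPM (MYC, 5723 UMIs), and immature neutrophils 157 and 121 CPM. Together these 2 stages held 60.1% and 26.4% of its control UMIs, and 56.6% and 29.0% of those of the MYC library. Each step was beyond counting error: 5.58-fold (5.04 to 6.18) from granulocyte progenitors to immature neutrophils and 2.90-fold (2.78 to 3.02) on to mature neutrophils in the control, and 5.12-fold and 3.08-fold in the MYC library. A Cd33 UMI was found in 77.7% and 79.0% of mature neutrophils, and in 36.1% and 31.7% after thinning, against 8.80% and 9.54% of erythroid cells (1.29% and 2.19% after thinning). Monocytes held 16.7 and 22.5 CPM, or 0.0367 and 0.0604 of the neutrophil level. Mature B cells (11.3 CPM), stem or multipotent progenitors (9.47 CPM) and plasma cells (7.38 CPM) of the control were not above erythroid cells (11.0 CPM) beyond counting error, and were read as background.

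Cd33 was higher in monocytes of the MYC library and lower in its neutrophils, by less than 1.5-fold in each class. In monocytes the log2 ratio was 0.43 (0.23 to 0.64), or 0.58 against the median, from 297 and 594 UMIs. It was 0.81 in cluster 11 and 0.22 in cluster 13, and ranged from 0.14 with doublets kept to 0.81 when the libraries were clustered separately. The monocyte class held 1207 CPM of mature neutrophil markers and 4518 CPM of immature ones in the control, and 1020 and 3994 CPM in the MYC library, with all 9 genes of each list above 0. The part of neutrophil RNA or doublets in the Cd33 ratio was not tested. In immature and mature neutrophils the log2 ratios were -0.38 (-0.45 to -0.30) and -0.29 (-0.34 to -0.24), and against the medians -0.18 and -0.069. The immature value was -0.64 with cells under 5% mitochondrial UMIs, past 1.5-fold, and over the neutrophil lineage the value of -0.29 was -0.020 with median-of-ratios scaling, so little of the neutrophil difference is left against other features. Granulocyte progenitors had -0.25, and between -0.85 and 0.029 under the other processing choices.

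Ager (ENSMUSG00000015452, GRCm38 chromosome 17, 34597862 to 34600936, protein-coding), the gene of the alarmin receptor RAGE, was sparse, with 289 control UMIs over all kept cells and 262 in the MYC library. Of these, 227 and 196 lay in the neutrophil lineage. In the control, mature neutrophils (5.47 CPM from 89 UMIs) and granulocyte progenitors (4.63 CPM from 72 UMIs) did not differ beyond counting error, and were 8.70-fold (4.92 to 16.6) and 7.36-fold (4.12 to 14.1) above erythroid cells. Ager had no steady gradient over the stages: immature neutrophils stood at 3.19 CPM, 0.689 of the progenitor level (0.486 to 0.976). In the MYC library the stages held 2.83 CPM (35 UMIs), 3.99 CPM (97 UMIs) and 4.16 CPM (64 UMIs). Its mature neutrophils and granulocyte progenitors were 3.90-fold (1.87 to 9.43) and 2.65-fold (1.21 to 6.63) above erythroid cells. The log2 ratio was -0.71 (-1.34 to -0.11) in granulocyte progenitors, but 0.10 as a mean over cells. It was 0.32 (-0.14 to 0.80) in immature and -0.39 (-0.88 to 0.09) in mature neutrophils. Against the medians these ratios were -0.43, 0.52 and -0.18, all short of 1.5-fold. Monocytes held 1.12 CPM (20 UMIs) and 1.51 CPM (40 UMIs), a log2 ratio of 0.43 (-0.38 to 1.28), or 0.58 against the median, and stood at 1.79-fold (0.858 to 3.82) and 1.42-fold (0.656 to 3.51) the erythroid level, not beyond counting error. Nonclassical monocytes and basophils or mast cells had 0 Ager UMIs in both libraries.

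Counting ratios of at least 1.5-fold puts the 10 genes beside all features with at least 50 UMIs in a class. In granulocyte progenitors 7 of the 10 had enough UMIs: Cd14 was higher, where 5% of all features were, and Tlr4, Tlr7 and Ager were lower, where 24.4% were. In immature neutrophils, of 9 genes, Cd14 was higher (8.76% of all features) and Tlr4 and Tlr7 were lower (16.6%). In mature neutrophils, of 9 genes, Cd14 was higher (8.14%) and Tlr7 lower (21.1%). In monocytes, of 10 genes, Cd14 was higher (8.42%) and Tlr7 and Tlr13 were lower (16.3%). Over the neutrophil lineage as a whole Cd14 was higher (4.84%) and Tlr7 lower (21.3%), with log2 ratios of 2.37 and -0.79. With 7 to 10 genes these counts are small, and the lower calls are of a kind that 16.3% to 24.4% of all features also had. Read against the all-feature median, Cd14 stayed past 1.5-fold in all 4 classes, where 13.8% to 15.3% of all features were higher. Tlr7 was the 1 gene of the 10 that stayed lower by that much, in immature and mature neutrophils. By that reading 6.72% and 11.5% of all features were lower there, and 1 of 9 genes is near the share in mature neutrophils.

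The split of all features turned with the scaling, so a ratio below 0 says little alone. In the neutrophil lineage 570 features were at least 1.5-fold higher and 2504 lower per 1000000 UMIs, and 1501 higher and 950 lower with median-of-ratios scaling. In monocytes these were 936 and 1808 against 1539 and 1071. Under that scaling the log2 ratio of Tlr7 in the neutrophil lineage was -0.52, and Cd14 stayed at 2.64. The median over the genes compared was -0.29 in mature neutrophils and -0.10 in monocytes, beside -0.22 and -0.15 for all features.

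**Figure D3:**
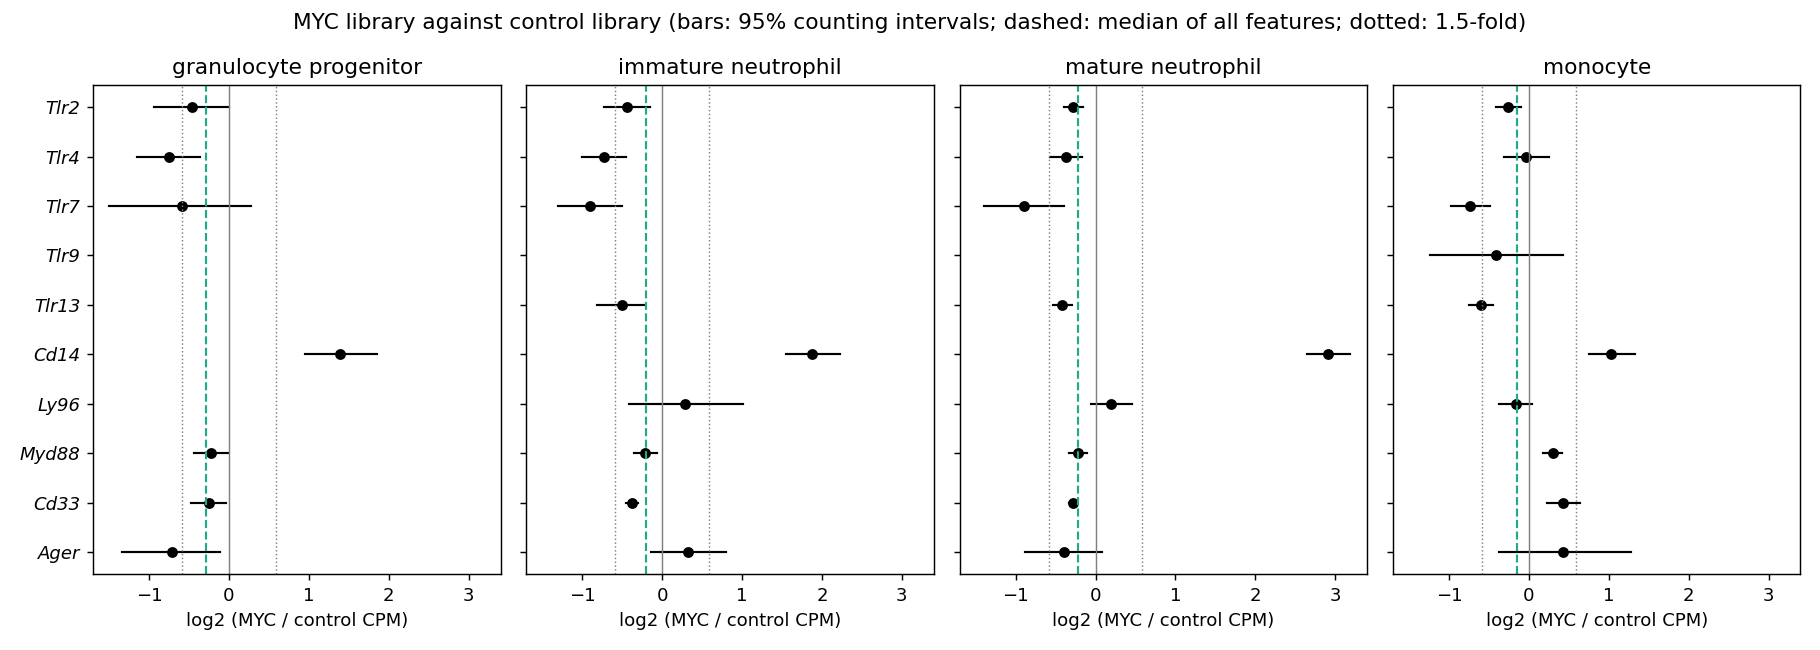
Log2 ratio of the level in the MYC library to that in the control library for each gene with at least 50 UMIs, in 4 classes, with 95% counting intervals as bars. The dashed line is the median of all features and the dotted lines mark 1.5-fold. Cd14 lies to the right in all 4 panels (1.40, 1.88, 2.91 and 1.03), and most other points lie near the dashed line.

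Other genes of the pathway were followed as a list of 72, of which 71 were among the features and Clec7a was not analysed here. In mature neutrophils 60 had enough UMIs, and 1 was at least 1.5-fold higher and 20 (33.3%) lower, where 8.14% and 21.1% of all features were. In immature neutrophils 3 of 57 were higher and 22 (38.6%) lower, beside 8.76% and 16.6% of all features. In granulocyte progenitors these were 1 and 17 (31.5%) of 54, beside 5% and 24.4%, and in monocytes 2 and 17 (26.6%) of 64, beside 8.42% and 16.3%. Their median log2 ratios were -0.45, -0.39, -0.43 and -0.32 in mature neutrophils, immature neutrophils, granulocyte progenitors and monocytes, each below the median of all features given above. Read against that median, 11 of 60 were lower and 4 higher in mature neutrophils (11.5% and 14.3% of all features), and 8 of 57 lower and 4 higher in immature neutrophils (6.72% and 15.3%). In granulocyte progenitors 3 of 54 were lower and 4 higher (7.6% and 14.7%), and in monocytes 13 of 64 lower and 2 higher (9.63% and 13.8%). The log2 ratios that follow are per 1000000 UMIs unless the median is named. The shares of all features by the median reading also stand beside the group counts against the median that follow. The list was chosen with earlier results of these data known, and these counts were not tested.

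Of the other Toll-like receptors and their relatives, 3 of 6 were lower in mature neutrophils, 1 of 7 in monocytes, 2 of 3 in granulocyte progenitors and 1 of 3 in immature neutrophils, where 1 was higher. The shares of all features that were lower are 21.1%, 16.3%, 24.4% and 16.6% in the same order, and 1 of 7 is near its share. Tlr5 (the flagellin receptor) and Tlr6 (a partner of Tlr2) were lower in mature neutrophils, with log2 ratios of -0.78 (15.98 to 9.30 CPM) and -0.97 (16.8 to 8.58 CPM). Tlr5 was also lower in immature neutrophils (-0.85, 43 and 28 UMIs) and Tlr6 in granulocyte progenitors (-0.83, 38 and 17 UMIs). Cd180, a surface relative of Tlr4, was lower in granulocyte progenitors (-1.18), mature neutrophils (-1.17) and monocytes, in the last from 83.5 to 34.6 CPM (-1.27, -1.39 to -1.15). Its partner Ly86, which is also one of the monocyte markers, was higher in immature neutrophils, from 2.37 to 5.02 CPM (1.08). Against the medians Tlr5 in mature neutrophils (-0.56) and Tlr6 in granulocyte progenitors (-0.55) fall short of 1.5-fold, which leaves 2 of 6 and 1 of 3 lower in these classes. Of the genes listed for trafficking and processing, 2 of 6 were lower in granulocyte progenitors (24.4% of all features), 2 of 6 in immature neutrophils (16.6%), 3 of 7 in mature neutrophils (21.1%) and 2 of 7 in monocytes (16.3%). Slc15a4, an endolysosomal transporter, had log2 ratios of -0.75, -0.60, -1.06 and -0.81 from granulocyte progenitors to monocytes. The chaperone gene Hsp90b1 had -0.78, -0.65 and -0.84 in the 3 neutrophil stages, and Nrros -0.94 in mature neutrophils and -0.67 in monocytes. Against the medians none of the group was lower by 1.5-fold in the 2 earlier neutrophil stages, all 3 of these genes were in mature neutrophils, and Slc15a4 alone in monocytes. The protease gene Ctsl was higher in all 4 classes (1.09, 0.61, 0.68 and 1.25), by either reading, reaching 61.8 CPM against 25.9 CPM in monocytes.

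Most of the 24 adaptors, kinases or ligases and transcription factors with enough UMIs did not pass 1.5-fold. In mature neutrophils 5 (20.8%) were lower, near the 21.1% of all features, and in granulocyte progenitors 7 (29.2%), beside 24.4%. In immature neutrophils 10 (41.7%) were lower, beside 16.6%, and in monocytes 6 (25%), beside 16.3%. Tab2, which helps activate the kinase TAK1, had log2 ratios of -0.83, -0.69, -0.75 and -0.64 in granulocyte progenitors, immature and mature neutrophils and monocytes, and Nfkb1 had -0.74, -0.70, -0.63 and -0.69. Against the medians both fall short of 1.5-fold in all 4 classes. By that reading 1 of the 24 genes was lower in granulocyte progenitors (Tirap), 2 in immature neutrophils (Traf3 and Nfkb2), 1 in mature neutrophils (Irf7) and 3 in monocytes (Ticam2, Irak2 and Irf7), while Irak1 was higher in mature neutrophils and Irf5 in immature ones. The bridging adaptor Tirap was lower in granulocyte progenitors (34.4 to 16.7 CPM, -1.05) and immature neutrophils (-0.69), and Ticam2 in immature neutrophils (-0.71) and monocytes (-0.82). Irf7, a factor of interferon responses, was lower in mature neutrophils (63.9 to 33.0 CPM, -0.96) and monocytes (62.9 to 21.3 CPM, -1.56). The 1 of these genes that was higher in the 4 classes was Irf5 in immature neutrophils (0.74), from 28 and 55 UMIs. Of the inhibitors, 4 of 7 were lower in granulocyte progenitors, 4 of 7 in immature neutrophils, 2 of 6 in mature neutrophils and 2 of 7 in monocytes, and none was higher in these 4 classes. With 6 or 7 genes a count of 2 is close to the share of all features that were lower (21.1% in mature neutrophils and 16.3% in monocytes), and the 4 of 7 stand beside 24.4% and 16.6%. Examples are Irak3 in the 3 neutrophil stages (-0.61, -0.59 and -0.67), and Tnfaip3 in granulocyte progenitors, immature neutrophils and monocytes (-0.71, -0.88 and -0.997). Against the medians the inhibitors lower by 1.5-fold were Tnfaip3 in immature neutrophils, Socs1 in mature neutrophils and both in monocytes, and Nfkbia was higher in granulocyte progenitors.

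Of the lectins of the Cd33 family with their adaptor and phosphatases, 4 of 7 were lower in mature neutrophils and 4 of 8 in monocytes (21.1% and 16.3% of all features), 2 of 6 in granulocyte progenitors (24.4%) and 4 of 7 in immature neutrophils (16.6%), and none was higher in these 4 classes. Siglecg went from 72.8 to 18.1 CPM in granulocyte progenitors, from 23.1 to 5.33 CPM in mature neutrophils and from 22.9 to 4.47 CPM in monocytes, with log2 ratios of -2.01, -2.12 and -2.36. Siglece, a neutrophil lectin, was lower in immature (121 to 78.9 CPM) and mature neutrophils (172 to 113 CPM). Against the medians Siglecg stayed lower in these 3 classes (-1.73, -1.90 and -2.21), Siglece was short of 1.5-fold, and the adaptor gene Tyrobp was higher in the 3 neutrophil stages. Siglec1 in monocytes had 48 and 8 UMIs (-3.15, -4.45 to -2.06). Siglech was also one of the markers that named plasmacytoid dendritic cells. It was lower in mature neutrophils (-2.03) and monocytes (-1.56), while the control held 218 plasmacytoid dendritic cells against 44, and the part of free RNA in that was not tested. Of the other alarmin receptors and co-receptors, 0 of 5 passed 1.5-fold in granulocyte progenitors and 1 of 7 was lower in immature neutrophils. The shares of all features that were lower there are 24.4% and 16.6%, and 1 of 7 is near its share. In mature neutrophils 3 of 7 were lower, beside 21.1% of all features. They were Il1rl1, the receptor of interleukin-33 (5.66 to 1.89 CPM, -1.58), the scavenger receptor gene Cd36 (50 and 21 UMIs, -1.17) and the formyl peptide receptor gene Fpr2 (776 to 515 CPM, -0.59). Against the median Fpr2 falls short (-0.37), which leaves 2 of 7 beside 11.5% of all features. By that reading Trem3 was higher in granulocyte progenitors. In monocytes Trem1 was higher (2.25 to 4.05 CPM, 0.85). There 2 of 8 were lower, close to the 16.3% of all features with so few genes, namely Cd36 (34 and 19 UMIs, -1.41) and the mannose receptor gene Mrc1 (103 and 53 UMIs, -1.53).

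The 3 ligands with enough UMIs, S100a8, S100a9 and Hmgb1, passed 1.5-fold in none of the 4 classes. Their log2 ratios in mature neutrophils were 0.14, 0.51 and 0.21, and 0.36, 0.73 and 0.43 against the all-feature median, by which S100a9 is past 1.5-fold. Outside these classes S100a8 and S100a9 were higher in mature B cells (1.26 and 1.68), T or NK cells (0.64 and 0.85) and erythroid cells (0.68 and 1.13). In erythroid cells they stood at 3939 and 4429 CPM in the control, against 93534 and 109139 CPM in mature neutrophils, and the part of free RNA in these ratios was not tested.

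**Figure D4:**
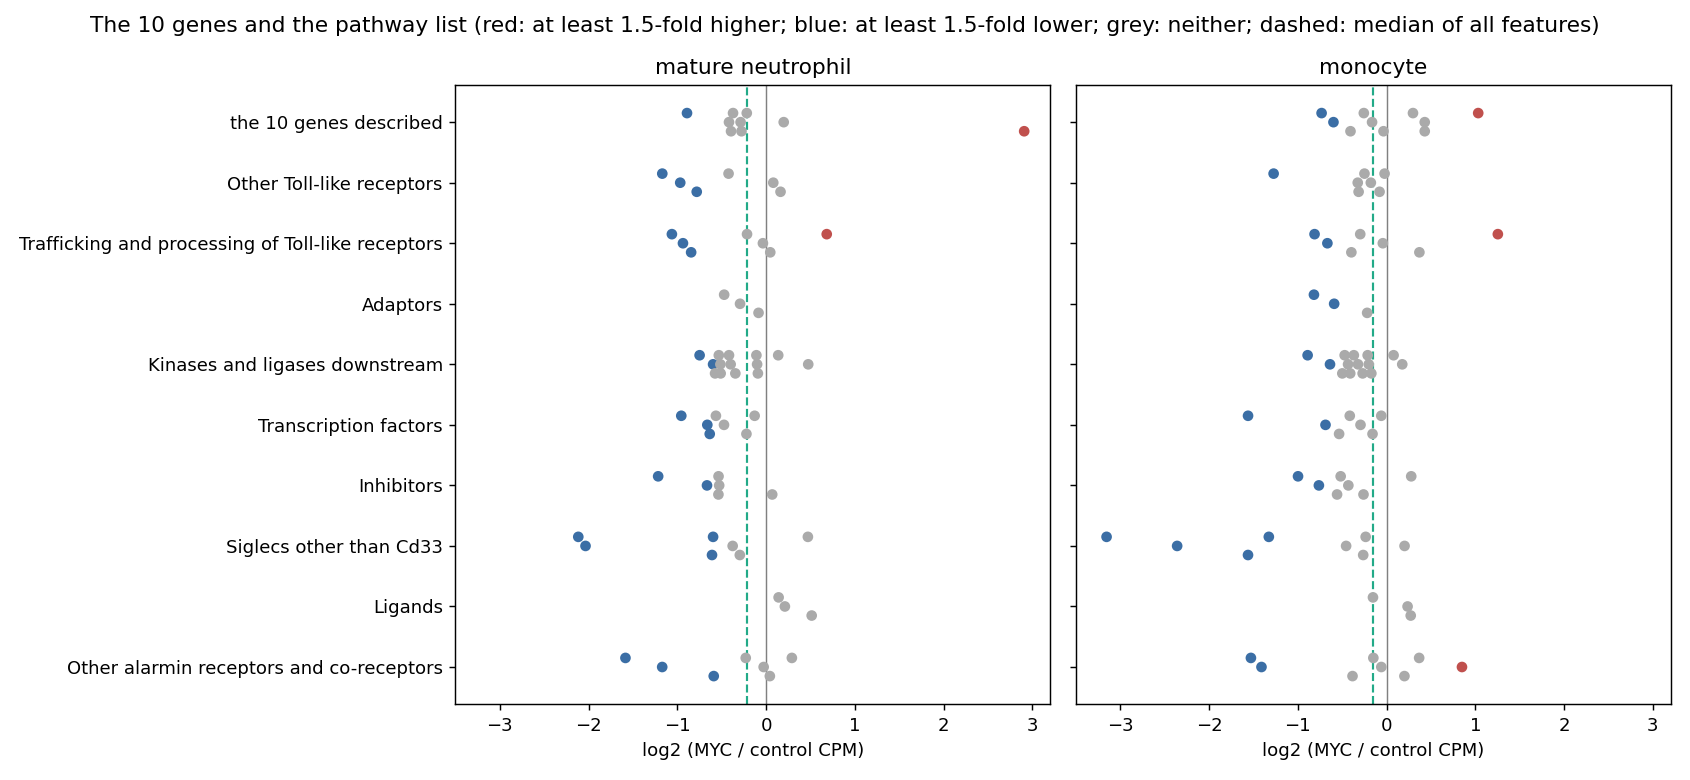
Log2 ratio of the MYC to the control library for each of the 10 genes (top line) and each gene of the pathway list with at least 50 UMIs, by group, in mature neutrophils and monocytes. Red marks at least 1.5-fold higher, blue at least 1.5-fold lower, grey neither, and the dashed line is the median of all features. In mature neutrophils the red points are Cd14 (2.91), 1 of the 10 genes, and Ctsl (0.68) of the pathway list, and Siglecs reach -2.12 in mature neutrophils and -3.15 in monocytes.

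How alike the patterns of the genes were over classes was described by the correlation of log2(CPM + 1) over 23 points, each a class of 1 library with at least 100 cells. The points share libraries, depth and free RNA, and neighbouring classes of one lineage are not independent. Tlr2 was most like Tlr13 among the 10 genes (r = 0.86), followed by Tlr4 (0.83) and Myd88 (0.82). Cd14 had its highest value with Myd88 (0.74) and Tlr4 (0.72), and 0.33 with Ly96. Tlr7 stood apart, with 0.56 for Ly96 and 0.10 for both Cd14 and Cd33. Ager was most like Cd33 (0.73). Outside the lists, the nearest of the 3 genes ranked for each was Tgfbi for Tlr2 (0.92), Ebi3 for Tlr4 (0.85), Kctd21 for Tlr7 (0.87), Hgsnat for Tlr13 (0.93), Gm16192 for Cd14 (0.85), Tpd52 for Ly96 (0.85), Mtmr6 for Myd88 (0.92), Mmp25 for Cd33 (0.97) and Rnd1 for Ager (0.89). The next for Cd33, Slfn4 (0.96), is one of the mature neutrophil markers.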

How the data were processed

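Droplet-based 3′ RNA sequencing of mouse bone marrow gave 1 library per genotype. The deposited files hold raw UMI counts per feature and barcode, which the authors made with version 6.0.0 of Cell Ranger, per the file headers. The submitters' processing notes name Cell Ranger 6.0, Seurat and the builds GRCm38 and mm10. How barcodes were called is not given in the sources used here.

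Cells with at least 500 UMIs, 200 genes and at most 10% mitochondrial UMIs were kept, and doublets called by Scrublet removed (4.53% and 1.95%, where 13.7% and 11.6% were expected from loading). Both libraries were clustered together with scanpy 1.11.5 (2000 variable genes, 30 components, Leiden resolution 1 with igraph 0.11.9), and clusters were named from fixed markers. Free RNA was not corrected. Counts were summed per class and library as CPM, with exact Poisson intervals for levels and exact conditional intervals for ratios at 95%. A ratio was compared where a class had at least 100 cells in each library and a feature at least 50 UMIs over both, and called at 1.5-fold. Ratios with other cell numbers are values set side by side. Correlations used a pseudocount of 1.

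The genes and lists were chosen with earlier results of these data known. Named genes were all 10, with examples from the pathway list genes past 1.5-fold and from the 3 most alike genes outside the lists, picked with their values seen; the ligands are named as the group with none past it in neutrophils and monocytes.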

Additional observations from a re-analysis of the deposited data

How the results depend on the processing

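No paired analysis was possible because the labels give no replicate numbers and each genotype has 1 library. Of 578 values of single genes under alternatives, 55 had the other sign than the value reported. In 4 of the 55 the reported ratio had passed 1.5-fold. Tlr7 in granulocyte progenitors went from -0.59 to 0.054 at a Leiden resolution of 2 and 0.048 with cells under 5% mitochondrial UMIs, Tlr7 in mature neutrophils from -0.89 to 0.31 within cluster 0, and Ager in granulocyte progenitors from -0.71 to 0.10 as a mean over cells. The other mature neutrophil cluster with a positive Tlr7 value, given above from few UMIs, is not among these 4. The cause of the reversals was not tested. The number of the 10 genes lower in the neutrophil lineage, 1, was 2 at a Leiden resolution of 2 and as a mean over cells, and 0 with median-of-ratios scaling and with a fold of 2. In monocytes the number lower, 2, was 1 at a Leiden resolution of 2 and when cells needed 1000 UMIs and 500 genes, and 0 with each library clustered on its own, with median-of-ratios scaling and with a fold of 2. The number higher in monocytes, 1, was 2 at a Leiden resolution of 2, with cells under 5% mitochondrial UMIs, with at least 1000 UMIs and 500 genes and as a mean over cells, and 3 with each library clustered on its own. All features moved with these choices too. In monocytes 936 higher and 1808 lower became 629 and 2217 with each library clustered on its own. In the neutrophil lineage 570 and 2504 became 863 and 2230 at a Leiden resolution of 2. These shifts are therefore not read as particular to the 10 genes. Cd14 was higher in the neutrophil lineage and in monocytes under the 8 other processing choices. The comparisons within clusters and without shared barcodes were chosen after seeing the data.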
